A study of Drosophila melanogaster with 2 samples.

Results

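Messenger RNA of 8 genes known from the fly antenna and the taste organs was followed in heads of the fruit fly Drosophila melanogaster after ethanol vapour. They were a5 and a10, which encode secreted antennal proteins, the membrane protein gene Snmp1, and the chemoreceptor genes Orco, Ir25a, Ir76b, Or43b and Gr66a. They were picked by name with reads and ratios of the same libraries already known, out of 11256 genes with reads, so their values below are a description. Flies were adult females of the wild-type strain Canton-S, 3 to 5 days old. The ethanol flies were kept for 15 min in air saturated with ethanol, which sedated them, and recovered for 30 min in air without it. The control flies spent 45 min in air without ethanol. A group was 1 pool of some 180 flies and 1 library of poly(A) RNA, and no difference below could be checked against replicates.

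The ethanol library held 11027646 assigned reads and the control library 11763222. RNA integrity numbers, a scale of RNA intactness, were 6.40 for the ethanol sample and 6.80 for the control sample. Levels are given in RPKM, reads scaled by transcript length and by the library's assigned reads. The log2 ratio sets ethanol reads over control reads after division by the library totals, with a 95% Clopper-Pearson interval that covers counting error only. Low counts were mostly even. In the ethanol library 1143 accessions had 2 reads and 356 had 1, and in the control library 1236 had 2 and 394 had 1. Whether both mates of a read pair were counted was not given in the sources used here, so a wider interval that takes 2 reads as 1 count is given beside the main one and called the interval by pairs. Genes whose reads in both libraries summed to at least 50 were taken as measured, which 7 of the 8 genes reached, Orco being the exception. A measured gene was called lower or higher when at least 2-fold changed with an interval that excluded no change.

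In insect sensory hairs, odour molecules reach the dendrites of sensory neurons through a lymph rich in proteins that support cells secrete. Odorant receptors (Or proteins) work as complexes with the co-receptor Orco. Ionotropic receptors (Ir proteins) are a separate family related to glutamate receptors, in which Ir25a and Ir76b act as broadly used co-receptors for acids, amines, salts and other stimuli. Gustatory receptors (Gr proteins) detect tastants, mainly in the proboscis and legs, and a few have roles in the antenna.

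The lowest ratio among the 8 genes was that of a10, whose level fell to 29.7 RPKM after ethanol, against 77.7 RPKM in the control. In whole heads, fewer antennal cells and less RNA per cell cannot be told apart. The levels of a5 and Ir76b were also below the control by the interval on reads as counted, at log2 ratios of -0.64 and -0.66. For Snmp1, Orco, Ir25a, Or43b and Gr66a the interval included no change. All 7 measured genes had a log2 ratio below 0, as had 43.0% of the 7822 measured genes. Of the 7, 1 was called lower, where 0.741% of measured genes were, and none was called higher, where 1.75% were. Intervals lay below 0 for 3 of the 7, against 15.0% of measured genes, and by pairs for 2 of the 7, against 9.43%. The median log2 ratio was -0.39 over the 7 genes and 0.049 over all measured genes. These shares cannot be read as evidence about the set, because its genes were chosen with these ratios in view.

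**Figure D1:**
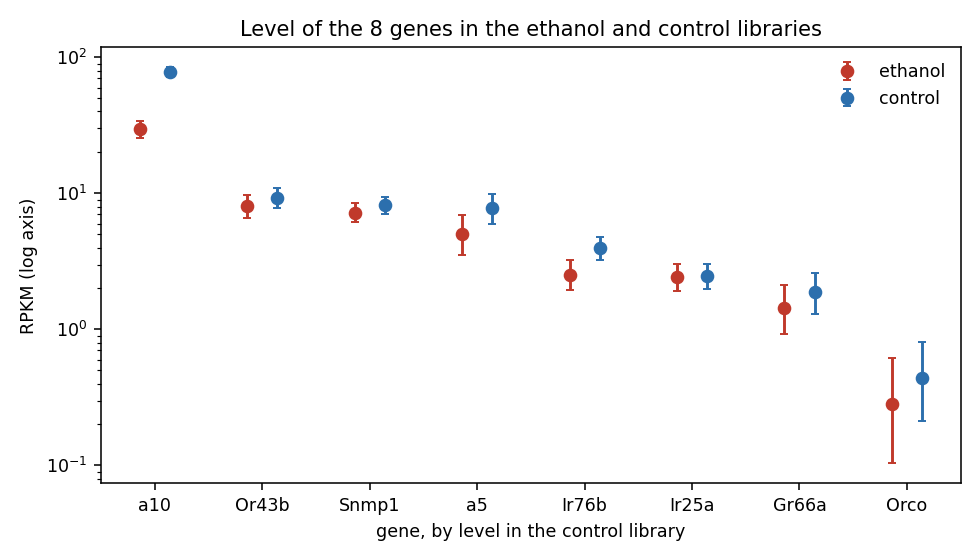
Level of each gene in RPKM (log axis) in the ethanol library (red) and the control library (blue), 1 library each, with 95% Poisson intervals of the counts. The a10 points are at 29.7 and 77.7 RPKM with intervals that do not overlap, whereas the Ir25a points almost coincide at 2.41 and 2.46 RPKM.

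a10 encodes a small secreted protein of the chemosensory protein family, made in the antenna. It had 186 reads in the ethanol library and 519 in the control library, which covered 96.8% and 97.7% of its 568 nt transcript. Its log2 ratio was -1.39, with an interval of -1.64 to -1.14 and an interval by pairs of -1.74 to -1.04, a 2.62-fold lower level. Only 16 of the 7822 measured genes, a10 included, had a ratio this low or lower. The 95% Poisson intervals of its level were 25.6 to 34.3 RPKM in the ethanol library and 71.1 to 84.7 RPKM in the control library, which do not overlap.

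The other genes of the chemosensory protein family did not share the low ratio of a10. Phk-3, also a secreted family member, had 500 ethanol and 509 control reads, a log2 ratio of 0.067 with an interval of -0.11 to 0.25. EbpIII, the family's most abundant gene, had 32722 and 35350 reads, at -0.018. CG30172 had 642 and 605 reads, at 0.18. The log2 ratio of a10 was lower than that of Phk-3 by a difference of -1.45 (interval -1.76 to -1.15, by pairs -1.90 to -1.02). Against EbpIII the difference was -1.37 (-1.62 to -1.12), and against CG30172 it was -1.57 (-1.86 to -1.27), and the intervals by pairs of both excluded 0 as well. Of the 4 family members, all measured, 1 was called lower and 0 higher, against 0.741% and 1.75% of all measured genes. Their median log2 ratio was 0.025.

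a5 encodes an antennal protein of the phosphatidylethanolamine-binding protein (PEBP) family. It had 38 reads in the ethanol library and 63 in the control library, or 5.02 and 7.80 RPKM, on a transcript of 687 nt covered over 97.2% and 97.8% of its length. Its log2 ratio of -0.64 had an interval of -1.26 to -0.033, whereas the interval by pairs, -1.54 to 0.23, included 0. Of the 4 measured genes of the PEBP family none was called, where 0.741% of all measured genes were called lower and 1.75% higher. CG7054 was at 0.46 (809 and 629 reads), CG17919 at -0.11 (1838 and 2122 reads) and CG6180 at -0.0021 (1567 and 1674 reads). The log2 ratio of a5 differed from that of CG7054 by -1.09 (interval -1.73 to -0.47, by pairs -2.04 to -0.22). Its difference from CG17919, -0.52, had an interval that included 0 (-1.15 to 0.089). Its difference from CG6180, -0.63, had an interval of -1.26 to -0.021 that excluded 0, whereas the interval by pairs, -1.57 to 0.22, did not.

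Snmp1 encodes a CD36-related membrane protein of antennal neurons and support cells that is needed for pheromone responses. It had 155 ethanol and 187 control reads (7.21 and 8.16 RPKM), with 97.9% and 99.3% of its 1949 nt transcript covered. Those reads stood on 1 of its 2 annotated transcripts. The log2 ratio was -0.18, with an interval of -0.49 to 0.14, so no difference was detectable at this depth, while differences beyond these bounds lie outside the counting error. Among the 11 measured genes of the CD36 family none was called, against 0.741% called lower and 1.75% higher over all measured genes. The family's median was -0.025. Those with the largest ratios were CG7227 at 0.43 (441 and 348 reads), pes at -0.39 (78 and 109 reads) and santa-maria, a carotenoid uptake receptor, at -0.22 (293 and 363 reads). Snmp2, the nearest relative of Snmp1 by name, was under the floor with 11 and 24 reads.

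**Figure D2:**
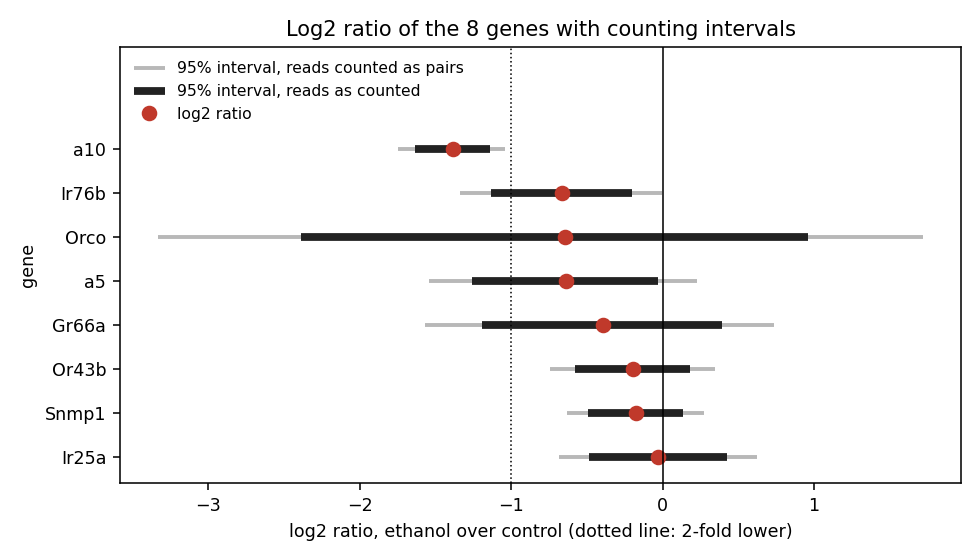
Log2 ratio of ethanol over control (horizontal axis) for the 8 genes, with 95% Clopper-Pearson intervals on reads as counted (black) and by pairs (grey); the dotted line marks 2-fold lower. The interval of a10 lies wholly to the left of the dotted line, at -1.64 to -1.14, that of Ir76b ends at -0.20 and that of Orco spans -2.39 to 0.96.

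Of the co-receptor genes, Ir76b had 64 ethanol and 108 control reads, or 2.51 and 3.98 RPKM. Its log2 ratio was -0.66, with an interval of -1.13 to -0.20 and by pairs of -1.34 to -0.0047. It did not reach the 2-fold rule. Reads covered 91.4% of its 2308 nt transcript in the ethanol library and 80.6% in the control library, so the library with fewer reads was the more widely covered one. Ir25a had 80 and 87 reads, or 2.41 and 2.46 RPKM, and a log2 ratio of -0.028 (interval -0.48 to 0.43). Its reads stood on 1 of its 4 annotated transcripts. The log2 ratio of Ir25a exceeded that of Ir76b by 0.63, with an interval of -0.024 to 1.29 that included 0, so a difference between these co-receptors was not detectable at this depth.

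Orco had 6 ethanol and 10 control reads, or 0.282 and 0.440 RPKM, the lowest level of the 8 genes in both libraries. Its log2 ratio of -0.64 had an interval of -2.39 to 0.96, so no difference was detectable at this depth. Its reads covered 10.8% of its 1932 nt transcript after ethanol and 14.4% in the control. Accessions of 1700 to 2200 nt with 6 reads in the ethanol library had a median coverage of 13.2%. Those with 10 reads in the control library had 14.5%, and both values were close to those of Orco. With length and read number matched, this describes the spread of reads and cannot show whether Orco was undercounted. Orco was counted on 1 of its 2 annotated transcripts. The counts are of unique reads, per the file headers. Some genes of the gene lists were picked here with their reads known. Among these, brp had 2 ethanol and 3 control reads over 3 accessions, Mhc 28 and 45 over 3, and norpA 34 and 36 over 3. Other genes with several accessions had many reads, such as Mf with 5033 and 5739 over 6. Whether reads shared between transcripts were left out was not tested, so the level of the whole Orco gene may be higher.

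Or43b, the odorant receptor of a class of antennal neurons that respond to fruit esters, was the chemoreceptor with the most reads. It had 108 ethanol and 132 control reads, or 8.08 and 9.26 RPKM, and a log2 ratio of -0.20 with an interval of -0.58 to 0.18. In the BDGP6 annotation 575 nt of its 1412 exonic nt overlap exons of Cul1, a cullin gene on the opposite strand, and strand use was not given in the sources used here. Cul1 itself had 52 and 43 reads (1.43 and 1.11 RPKM), and a log2 ratio of 0.37 with an interval of -0.24 to 0.98. How far Cul1 RNA enters the Or43b count was not tested. None of the 7 other genes had exons that overlap those of another gene in that annotation, although Snmp1 overlaps the span of SNF4Agamma outside exons.

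Gr66a is a bitter taste receptor of proboscis and leg neurons and not an antennal gene, as known from work outside these data. It had 25 ethanol and 35 control reads, or 1.43 and 1.88 RPKM, covering 71.6% and 84.8% of its 1584 nt transcript. The log2 ratio was -0.39, with an interval of -1.19 to 0.39, so no difference was detectable at this depth. Its level lay above that of Orco in both libraries, although Orco was counted on 1 of its 2 annotated transcripts only.

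Ordered by RPKM as counted, the 8 genes stood in the same order in both libraries. The order was a10, Or43b, Snmp1, a5, Ir76b, Ir25a, Gr66a and Orco. Orco and Snmp1 were counted on 1 of 2 annotated transcripts and Ir25a on 1 of 4, so their places may be too low. The intervals between neighbours cover counting error only and not this limit. In the ethanol library the level of a10 was 3.67 times that of Or43b (interval 2.88 to 4.70), and in the control library 8.39 times (6.92 to 10.2). Or43b and Snmp1 did not differ beyond counting error in either library. Ir76b and Ir25a did not differ in the ethanol library, at 1.04 times (0.738 to 1.46), whereas in the control library Ir76b was 1.62 times as high as Ir25a (1.21 to 2.17). Snmp1 and a5, and likewise Ir25a and Gr66a, did not differ in the control library, and the other neighbours in the order did.

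Between the genes themselves, log2 ratios were compared in 28 pairs, as a description with no adjustment. The interval of the difference excluded 0 in 6 pairs, each of which held a10. These set a10 against a5, Snmp1, Ir25a, Ir76b, Or43b and Gr66a, and in each a10 had the lower ratio. The differences ran from -1.36 for a10 minus Ir25a (interval -1.88 to -0.84) to -0.72 for a10 minus Ir76b (-1.25 to -0.19). By pairs of reads, 3 remained, a10 against Snmp1, Ir25a and Or43b. In the 21 pairs without a10, including a5 against Ir76b (difference 0.025, interval -0.76 to 0.80), no interval excluded 0, and some of these intervals, such as that of Ir25a minus Ir76b, reach beyond a 2-fold difference.

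**Figure D3:**
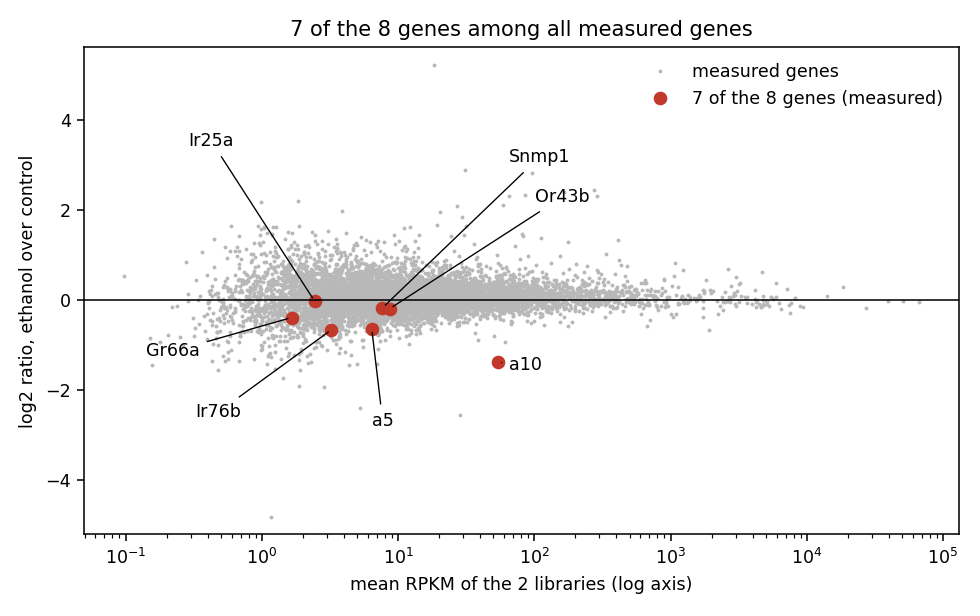
Log2 ratio of ethanol over control against the mean RPKM of the 2 libraries (log axis) for measured genes with reads in both (grey), with the 7 measured genes of the set in red. a10 at -1.39 lies at the lower edge of genes of its level, and the other 6 lie between -0.66 and -0.028, within the grey cloud.

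The reads of the set as a whole were few. The 8 genes summed to 662 ethanol and 1141 control reads, or 60.0 and 97.0 RPM, reads scaled to the library total. The log2 ratio of the sums was -0.69 (interval -0.83 to -0.55), with a10 giving the most reads in both libraries. Without a10 the sums were 476 and 622 reads, at -0.29 (-0.47 to -0.12, by pairs -0.54 to -0.045). The 5 receptor and co-receptor genes summed to 283 and 372 reads, at -0.30 (-0.53 to -0.074), and by pairs the interval included 0 (-0.63 to 0.022). All of these sums hold Or43b, whose count may include Cul1 RNA, which was not tested. The secreted proteins a5 and a10 summed to 224 and 582 reads, at -1.28 (-1.51 to -1.06).

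The receptor families behind these genes were close to the limit of detection. Of 60 annotated Or genes, 41 had reads and Or43b alone was measured. Of 66 Ir genes, 33 had reads and 3 were measured, Ir76b, Ir25a and Ir68a, a humidity receptor gene with 59 and 67 reads at a log2 ratio of -0.090. Of 60 Gr genes, 35 had reads and Gr66a alone was measured. A count of 0 allows up to 0.272 RPM in the ethanol library and 0.255 in the control library (3 reads, counting error only). None of the 5 measured receptor genes of the 3 families was called, where 0.741% of all measured genes were called lower and 1.75% higher.

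Summed over families, Ir genes other than Ir25a and Ir76b had 143 ethanol and 214 control reads, a log2 ratio of -0.49 (interval -0.80 to -0.18, by pairs -0.94 to -0.043). Or genes other than Orco and Or43b had 124 and 146 reads, at -0.14 (-0.50 to 0.21). Gr genes other than Gr66a had 117 and 150 reads, at -0.27 (-0.63 to 0.093). The interval of the Ir sum thus lay below 0, and those of the Or and Gr sums included it, which does not show that the families differ.

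Single receptors were found in 1 library only in both directions. Of the 41 Or genes with reads, 19 had reads in both libraries, 2 in the ethanol library only and 20 in the control library only. For Ir genes these numbers were 18, 3 and 12, and for Gr genes 18, 10 and 7. Of all 11256 genes with reads in either library, 10657 had reads in the ethanol library and 10666 in the control library. Whether the split of the Or genes departs from that of other genes with as few reads was not tested. Those with at least 8 reads in 1 library and 0 in the other, chosen after their values were seen, were 5 of the receptor genes. Or42b, a receptor for fruit esters, had 0 ethanol and 16 control reads, and the interval of its log2 ratio had an upper end of -1.85 (by pairs -0.68). Ir56d and Gr21a, a subunit of the carbon dioxide receptor, each had 0 and 8 reads, with an upper end of -0.68, which by pairs was 0.69 and so no longer excluded 0. Or13a and Gr8a each had 10 and 0 reads, with a lower end of 1.26, which by pairs was -0.033 and again did not exclude 0. Over all 11256 genes, 17 had 0 ethanol and at least 8 control reads, and 20 the reverse.

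**Figure D4:**
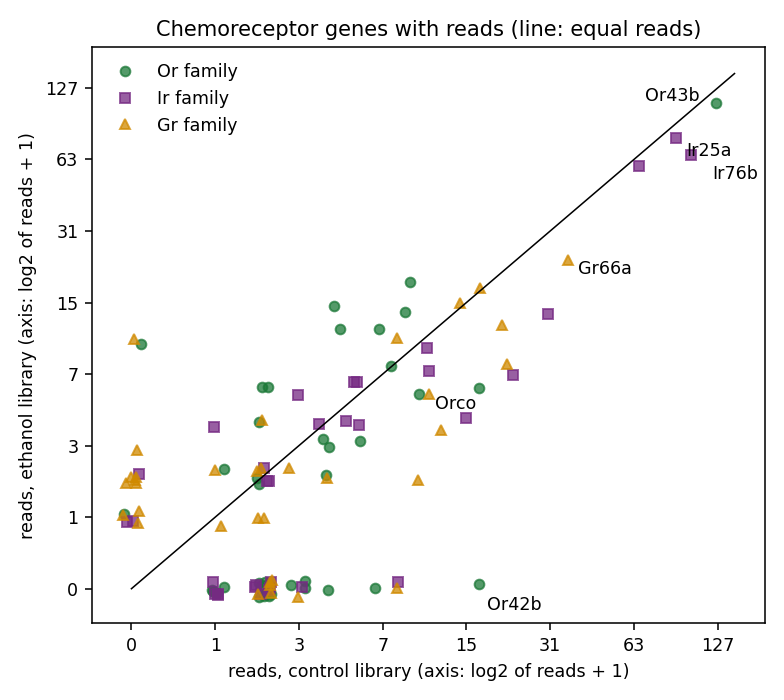
Reads per gene in the ethanol library (vertical axis) and the control library (horizontal axis), both on axes of log2 of reads + 1 with slight jitter, for Or (circles), Ir (squares) and Gr genes (triangles) with reads; the line marks equal reads. Or43b, Ir25a, Ir76b and Gr66a lie near the top, whereas Orco, at 6 and 10 reads, and Or42b, at 0 and 16, lie among genes under the floor of 50 reads.

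Genes known from the antenna's support cells and neurons differed widely in level. Those under the floor were named outside the naming rule, so they do not measure how much antennal RNA the libraries held. The odorant-binding protein gene lush, a classical marker of pheromone-sensing hairs, had 2 ethanol and 0 control reads, and Obp84a had 1 and 0. Amt, an ammonium transporter gene of the antenna, had 9 and 34 reads. Obp83a, an antennal odorant-binding protein gene, was by contrast at 26.9 and 50.1 RPKM (251 and 499 reads), and a10 was at the levels given above. In the list of antennal enzymes and other antennal genes, Est-6 had 6460 and 6776 reads and Antdh 2262 and 2755. The antennal neuron factors acj6 and pdm3, each summed over 2 transcripts, had 6 and 3, and 15 and 13 reads.

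Among 7 measured antennal enzymes and other antennal genes, 1 was called lower and 0 higher, against 0.741% and 1.75% of all measured genes. The median was -0.35, and intervals lay below 0 for 4 and above 0 for 0, against 15.0% and 23.9% of all measured genes. Jhedup, an antennal carboxylesterase related to juvenile hormone esterase, fell to 74 reads after ethanol, against 212 in the control (log2 ratio -1.43, interval -1.83 to -1.04). Os-C, a gene first found as specific to olfactory tissue, had 57 and 110 reads, at -0.86 (-1.34 to -0.38). ATP8B, a lipid flippase that odorant receptor neurons need, had 339 and 476 reads, at -0.40 (-0.60 to -0.19). Ugt36E1, a glycosyltransferase of antennal neurons, was at -0.35 (33 and 45 reads, interval -1.05 to 0.33). The log2 ratio of a10 was 0.038 above that of Jhedup, with an interval of -0.43 to 0.51, and differed from that of Os-C by -0.53, with an interval of -1.07 to 0.018. Both intervals include 0.

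Genes of the odorant-binding protein family, taken by symbol and not by tissue, spread widely in log2 ratio. Of 27 measured genes 2 were called lower, where 0.741% of all measured genes were, and 1 higher, where 1.75% were, with a median of -0.036. Intervals lay below 0 for 9 of them and above 0 for 7, against 15.0% and 23.9% of all measured genes. Obp19a and Obp59a fell (log2 ratios -2.56 and -1.93) and Obp56h rose (1.32). Obp83a was at -0.90 (interval -1.12 to -0.68), Obp28a at -0.73 (176 and 312 reads) and Obp57b at 0.53 (289 and 214 reads). The ratio of a10 lay between those of Obp19a and Obp83a. It was higher than that of Obp19a by 1.17 (interval 0.64 to 1.72) and differed from that of Obp83a by -0.49 (-0.82 to -0.15, by pairs -0.97 to -0.016).

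**Figure D5:**
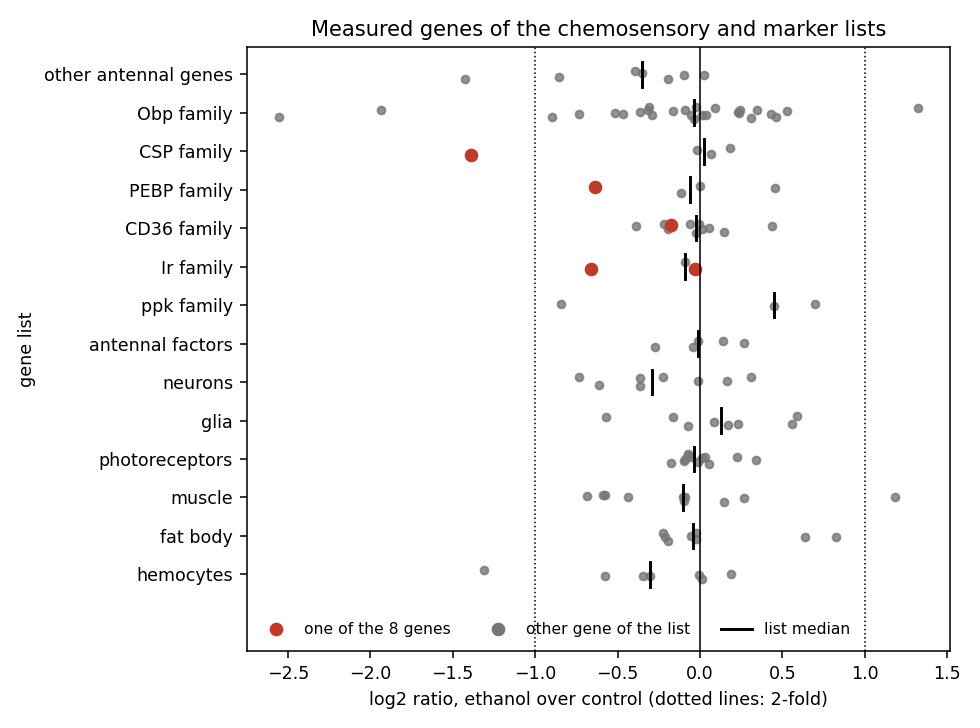
Log2 ratio of ethanol over control (horizontal axis) for each measured gene of the gene lists with at least 3 measured genes (rows), with the list median as a black bar, genes of the set in red and dotted lines at 2-fold. The antennal list, whose median is -0.35, and the neuron and hemocyte lists, at -0.29 and -0.31, have the lowest medians of the lists shown, and a10 stands alone among the 4 chemosensory protein genes.

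Over the 10 chemosensory lists together, without the 8 genes themselves, 59 genes were measured. Of these 3 were called lower and 1 higher (0.741% and 1.75% over all measured genes), and the median log2 ratio was -0.025. Intervals lay below 0 for 18 and above 0 for 13 (15.0% and 23.9% over all measured genes). Of 3 measured ppk genes, which encode sodium channels of taste and touch neurons, none was called (ppk26 -0.85, ppk 0.45, ppk19 0.70, median 0.45). Of 5 measured antennal transcription factors none was called (median -0.014), with Eip93F at -0.27, onecut at 0.27 and Xbp1 at 0.14.

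Markers of other cell types were read in the same way. Over all measured genes, 0.741% were called lower and 1.75% higher, and intervals lay below 0 for 15.0% and above 0 for 23.9%. The 8 neuron markers had a median of -0.29, with 3 intervals below 0 and 1 above. Their summed level was 311.8 RPM in the ethanol library and 288.4 in the control library (log2 ratio 0.11, interval 0.043 to 0.18). Without Snap25, the marker with the most reads, left out after its values were seen, it was 105.0 RPM and 121.7 RPM (log2 ratio -0.21, interval -0.33 to -0.10). Snap25 and futsch were counted on 1 accession and the other neuron markers over 2 or 3. Reads shared between transcripts may thus be missing from their levels, which was not tested. The 7 hemocyte markers had a median of -0.31, with 4 intervals below 0 and 0 above, and Col4a1, a collagen gene, was called lower (51 and 135 reads). Medians were 0.13 for 8 glial, -0.035 for 12 photoreceptor, -0.10 for 10 muscle and -0.041 for 8 fat body markers, and among these fln, a flight muscle protein gene, was called higher (51 and 24 reads). Intervals lay below 0 for 1 glial, 5 photoreceptor, 5 muscle and 6 fat body markers. They lay above 0 for 4, 3, 2 and 2 of them, in the same order. The taste organ list had 2 measured genes (median -0.20), Johnston's organ of the antenna's second segment 2 (0.0022), and ovary 1 (0.28). Whether these differences have a part in the ratios of the 8 genes was not tested.

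Genes nearest to a10 and to Or43b, the most read secreted and receptor genes of the set, were sought by distance in log2 RPKM over the 2 libraries. For a10 the nearest were the accession NM_168560, which no gene of the annotation matched (distance 0.41, 284 and 531 reads), a small noncoding RNA gene (0.51, 73 and 149 reads), and Obp83a (0.65). For Or43b they were CG30020 (0.010), CG7745 (0.011) and prtp (0.023). With 2 libraries such likeness describes level and ratio only.

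In the authors' deposited table, which tests the reads of these libraries and not the conditions, the column headed FDR, whose highest value lies just above 1 and which is quoted as the authors give it, held 9.79e-31 for a10, 0.0232 for Ir76b and 0.124 for a5. For the 5 other genes that table gave values from 0.479 for Snmp1 to 0.965 for Ir25a. The log2 ratios in the authors' deposited table were -1.39 for a10 and -0.66 for Ir76b.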

How the data were processed

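Poly(A) RNA of fly heads was sequenced in 1 ethanol and 1 control library, prepared with the TruSeq RNA kit per the labels' protocols. The submitters' processing notes name BDGP 5 as genome build. An aligner or counting tool was not given in the sources used here. Files the authors deposited hold, per RefSeq accession, a count of unique reads, the percent of the transcript covered, and RPKM, per the file headers. A further table the authors deposited gives, per the file headers, a log2 ratio with its p-value and an FDR, treated here as a score because its highest value lies just above 1. Their test was not given in the sources used here.

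Accessions were matched to genes through RefSeq Release 6 (14521 of 15090), and reads were summed per gene. Numbers of annotated transcripts came from the same release. Whether the submitters' counts, with BDGP 5 as build, used all of those transcripts was not given in the sources used here. Each of the 8 genes had 1 accession with reads. Overlaps between genes came from the Ensembl BDGP6 annotation. Library totals were 11027646 reads (ethanol) and 11763222 (control). Ratios of scaled reads and 95% Clopper-Pearson intervals were computed with SciPy 1.17.1. Differences between genes used exact conditional intervals of the odds ratio. Measured genes had at least 50 reads over both libraries. Calls needed a 2-fold change and an interval that excluded no change. With 1 library per group no test of the treatment exists. The functions for ratios, intervals on reads as counted and calls were tested on simulated data with independently drawn reads.

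The 8 genes and the 19 gene lists were chosen with earlier results of these data known. The lists were Or, Ir, Gr, Obp, ppk, PEBP, chemosensory protein and CD36 families, antennal enzymes and other antennal genes, antennal transcription factors, Johnston's organ, taste organ, neuron, glia, photoreceptor, muscle, fat body, hemocyte and ovary genes. For 3 list entries no gene was matched. Genes were named by rule, namely the 8 genes, and from each chemosensory list every called gene and up to 3 others with the largest ratios. Marker lists are given by medians and called genes, with interval counts for those with the most measured genes. Genes named outside the rule are receptors seen in 1 library only, antennal markers under the floor, and Est-6 and Antdh. Also outside it are brp, Mhc, norpA, Mf, Snap25 and futsch of the marker lists, picked with their reads known. Cul1 and SNF4Agamma were named for their overlaps, and the genes nearest to a10 and Or43b for their levels. Alternatives were TMM scaling (edgeR 4.0.16), median-of-ratios scaling (DESeq2 1.42.0), totals without the 10 most abundant genes, summed RPKM, the most read accession, pseudocounts of 1 and 0.1 RPKM, lowess trends (fraction 0.3) on length or level, floors of 1, 20 and 200 reads, a 1.5-fold threshold, a 99.9% interval and the interval alone. Intervals by pairs were chosen after seeing the data. No sequences of these genes are printed, since none were used here.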

Additional observations from a re-analysis of the deposited data

How the results depend on the processing

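The log2 ratio of each of the 8 genes was recomputed under 9 alternatives, which gave 70 values, since Orco lay under the floor for the 2 trend corrections. All 70 were below 0 and inside the gene's own 95% interval. Ranges were -1.53 to -1.36 for a10, -0.77 to -0.55 for a5, -0.73 to -0.50 for Ir76b and -0.092 to -0.020 for Ir25a. Not all 70 are separate checks. Each gene had 1 accession, so the most read accession and summed RPKM could only return the main value. Each other scaling shifted all 8 genes by the same amount. The number of the 8 genes called lower, 1 in the main analysis, was 3 with a 1.5-fold threshold and 3 with the interval alone, which added a5 and Ir76b. Chemosensory list genes called lower, 4 with a10, numbered 10 at 1.5-fold, 9 with a floor of 20 reads, 14 with a floor of 1 read and 21 with the interval alone, and those called higher, 1 in the main analysis, numbered 0 with a floor of 200 reads, 7 with a floor of 1 and 13 with the interval alone. Marker genes called lower, 1 in the main analysis, numbered 4 at 1.5-fold, 3 with a floor of 20 or of 1 read, 0 with a floor of 200 and 25 with the interval alone, and those called higher, also 1, numbered 4 at 1.5-fold, 0 with a floor of 200, 4 with a floor of 1 and 12 with the interval alone. With intervals by pairs the 2-fold calls in these groups numbered as in the main analysis. Over all measured genes the interval alone lay below 0 for 15.0% and above 0 for 23.9%. For the other thresholds and floors no share over all genes is given here, so those counts describe the settings only. The other scalings moved the median of all measured genes by at most 0.064 in size (log2, a shift of -0.064 with median of ratios). No paired analysis was possible because each group has 1 library. Depth limits the receptor genes, most of which lay under the floor of 50 reads, and 1 library per group leaves differences between pools of flies unmeasured.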
